A study of Danio rerio with 12 samples.

Results

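Age was compared in zebrafish ovary by setting 6 libraries from 61 days post fertilization (dpf) against 6 libraries from 47 dpf, with wild type and adamts9 mutant pooled and genotype kept as a term in the model. All 12 of the 12 libraries of the study entered the comparison, 3 in each of the 4 combinations of genotype and age. Wild-type fish were of the AB strain, and both genotypes were sampled at both ages. The mutant allele is not named in the labels, nor is it said whether a library comes from a single animal or a pool, so the p-values rest on a spread between libraries that may in part be technical. The adamts9 product is a metalloprotease that cells secrete into the extracellular matrix. Of 26154 named genes in the deposited table of estimated counts, 21393 passed the filter on low counts and were tested.

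As it matures, the fish ovary goes from small follicles, in which oocytes stock maternal RNA and egg coat proteins, towards follicles that take up yolk. Oocytes give much of the RNA of such an ovary, beside somatic follicle cells, stroma, vessels and blood. Fish red blood cells keep their nucleus and go on making haemoglobin mRNA, so a piece of ovary carries globin transcripts from the blood in it. Adult haemoglobin is built from alpha chains (hbaa genes) and beta chains (hbba genes), and immature red cells add the enzymes of haem synthesis.

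Total counts were 16439538 to 29246007 at 47 dpf and 17593307 to 38720166 at 61 dpf. Transcripts that mark oocytes were abundant at both ages: the Balbiani body gene buc stood at 840 to 1073 CPM (the count scaled to the size of its library) at 47 dpf and 796 to 1323 CPM at 61 dpf, and the growth factor gene gdf9 at 59.7 to 91.0 and 57.6 to 79.6 CPM. The adamts9 transcript was at 13.1 to 18.9 CPM at 47 dpf and 9.99 to 16.1 CPM at 61 dpf. Its log2 fold change was -0.12 ± 0.16 (approximate standard error, SE, with edgeR adjusted p = 0.72). Each such error was worked back from the log2 fold change and the F value of edgeR's test. The wild-type libraries of 61 dpf stood apart: they lay at 42.8 to 105.5 on the first principal component (26.2% of the variance), where the other 9 libraries lay between -59.0 and 1.12. The median standard deviation of log2 CPM within that group was 0.443, against 0.229 to 0.302 in the other groups.

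In edgeR's test of an age effect common to both genotypes, 9 genes passed, and how many passed depended on the tool. Transcripts of 4 adult haemoglobin genes fell 8.79-fold to 11.5-fold, and 5 genes rose between 2.07-fold and 3.58-fold. edgeR called 9 of 21393 genes (0.0421%) at an adjusted p under 0.05, of which 5 were higher at 61 dpf (0.0234%) and 4 lower (0.0187%). An unadjusted p under 0.05 was reached by 3253 genes (15.2%), with 1763 higher (8.24%) and 1490 lower (6.96%). In all 9 called genes the 6 older libraries did not overlap the 6 younger ones, which held for 225 of all tested genes (1.05%), 133 of them higher (0.622%) and 92 lower (0.43%). DESeq2 called 600 genes (395 higher, 205 lower), the mean of the 2 age changes in a model of all 4 groups 92, limma voom 9 and an edgeR test against a fold of 1.5 none, where 703 reached an unadjusted p under 0.05. All of the 9 genes were among the calls of DESeq2 and of the 4-group mean, and limma voom kept 7, without chpfb and iqsec2a. Of 107 genes followed through every alternative, 98 were not called by edgeR, of which DESeq2 called 51 and limma voom 1, so the misses given below are edgeR's. The calls were also sensitive to single libraries. No gene was called without wild-type replicate 1 of 47 dpf or without mutant replicate 1 of 61 dpf, where the adjusted p of the 9 genes reached at most 0.0902 and 0.0944. Without wild-type replicate 3 of 61 dpf, slc1a4 and tshz3a were left. Without wild-type replicate 2 or 3 or mutant replicate 2 of 47 dpf, the 4 calls were slc1a4, tshz3a, hbba1 and hbaa1, and without mutant replicate 1 of 47 dpf there were 18. All 9 genes kept their direction in each of the 12 fits with a library left out. This follows largely from the lack of overlap between their ages and adds no evidence.

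The fall was carried by the adult globin genes. hbba1, a beta globin gene, had 90.9 CPM in the lowest, 249 in the median and 436 in the highest of the 6 libraries of 47 dpf, and 10.5, 26.2 and 36.1 CPM at 61 dpf. The highest older library was thus below the lowest younger one, mutant replicate 3. The log2 fold change was -3.34 ± 0.41 (edgeR adjusted p = 0.0124), a 10.1-fold lower level.

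hbaa1, an alpha globin gene, ranged from 58.5 through a median of 149 to 355 CPM at 47 dpf and from 3.65 through 16 to 23.1 CPM at 61 dpf. It fell by 3.53 ± 0.46 on the log2 scale (edgeR adjusted p = 0.0169). si:ch211-5k11.8, listed by RefSeq with the synonym hbaa1.2, went from 86.6, 226 and 466 CPM to 8.63, 32.9 and 40.9 CPM (lowest, median, highest), a log2 fold change of -3.14 ± 0.45 (adjusted p = 0.0295). In both of these alpha genes, as in hbba1, the lowest level of all 12 libraries was in wild-type replicate 1 of 61 dpf.

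hbba2, a second beta globin gene, was expressed far lower, at 0.743, 1.31 and 2.56 CPM at 47 dpf and 0.0408, 0.0976 and 0.425 CPM at 61 dpf (lowest, median, highest). Its log2 fold change was -3.42 ± 0.52 (edgeR adjusted p = 0.0419), and -4.05 without wild-type replicate 2 of 61 dpf. Several of its older values are near or under the level that a count of 0 allows, which is 3 counts or 0.0775 to 0.182 CPM depending on the library. hbaa2 missed the threshold: it had 0.699 to 4.25 CPM at 47 dpf and 0 to 0.425 CPM at 61 dpf, with a log2 fold change of -3.85 ± 0.63 (adjusted p = 0.0548). hbba2 is too low for the ranked rises and falls of the naming rule and enters it by its p-values in both genotypes. si:ch211-5k11.8 lies outside the rule, by its clone name, and was chosen after its values were seen.

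These 5 genes neighbour each other on chromosome 3 of the RefSeq assembly GRCz12tu, in the order hbaa2, hbba2, hbaa1, hbba1 and si:ch211-5k11.8, with 1 gene that is no globin among them. Alpha genes, and likewise beta genes, are copies of each other, and the estimation of counts may divide reads between similar copies, so the level of a single copy is uncertain. How alike these copies are was not measured here. Of their summed CPM, hbba1 made up 31.7% to 46.0% of a library, si:ch211-5k11.8 35.2% to 45.9% and hbaa1 16% to 29.4%. The sum of the 5 genes was 237 to 1259 CPM at 47 dpf, with a median of 629, and 22.8 to 100.3 CPM at 61 dpf, with a median of 76.5. Tested as 1 summed feature, an alternative added after the data were seen, it had a log2 fold change of -3.31 ± 0.43 (edgeR adjusted p = 0.0166). In that fit 4 features were called, and the others were slc1a4, tshz3a and pik3cd.

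The estimated globin change was of similar size in each genotype. The globin genes came to notice through the common fit, which favours genes that change alike. Their likeness is therefore no independent evidence. The summed feature had a log2 fold change of -3.24 ± 0.63 in wild type (edgeR adjusted p = 0.0345) and -3.38 ± 0.63 in the mutant (unadjusted p = 0.000181, adjusted p = 0.773 over all genes). The difference between the genotypes was -0.14 ± 0.82 on the log2 scale (adjusted p = 0.973). That standard error, itself approximate, is too wide to show that the changes are equal. CPM is a share of the library, so these values do not show whether the amount of globin mRNA in an ovary fell. In bulk ovary, fewer red cells and less globin mRNA per red cell cannot be told apart either.

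**Figure D1:**
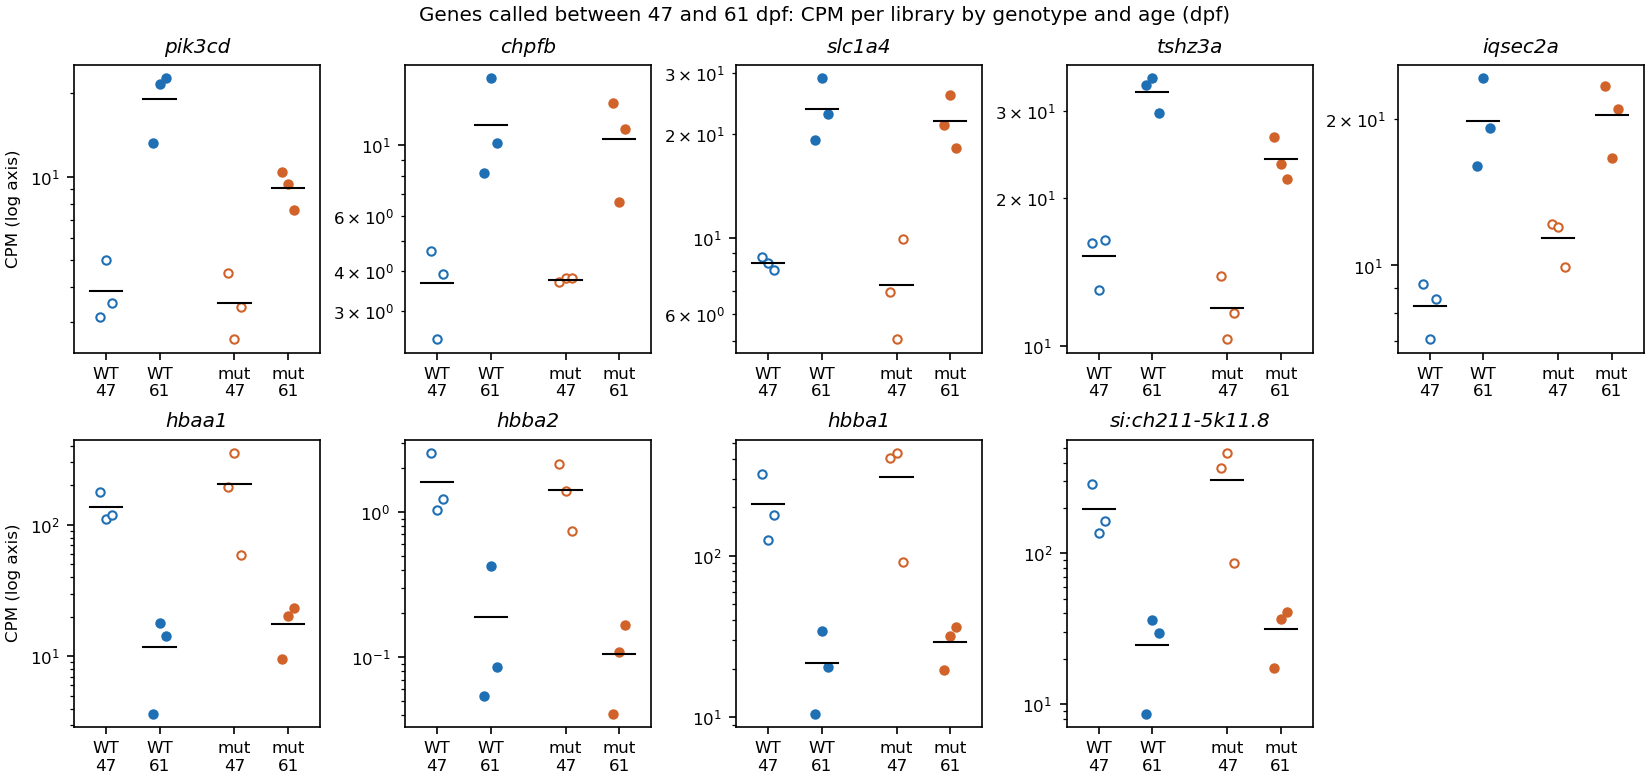
Level of each gene called between the ages, in CPM on log axes, for each library (WT, wild type; mut, adamts9 mutant; open points 47 dpf, filled points 61 dpf; bars are group means of 3 libraries). In every panel the 6 filled points lie on one side of the 6 open points.

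Other red blood cell genes had lower values too, without passing edgeR's test. Of 24 erythroid genes listed, 23 are in the table and 18 were tested. Of those 18, 3 were called lower and none higher, and 8 were lower and none higher at an unadjusted p under 0.05 (44.4% of the list, against 15.2% of all genes). In the common fit 17 had a negative log2 fold change, and 11 were negative in both genotypes. Of all 21393 genes, 10707 and 6353 were. The list median was -0.66, against -0.0005 for all genes. Without the 4 hba and hbb genes, 4 of 14 members were lower at an unadjusted p under 0.05 and the median was -0.50. By genotype that median was -0.30 in wild type and -0.59 in the mutant.

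alas2, the first enzyme of haem synthesis in red cells, had 2.18, 6.03 and 9.41 CPM at 47 dpf and 0.408, 0.852 and 1.84 CPM at 61 dpf (lowest, median, highest; log2 fold change -2.52 ± 0.44, edgeR adjusted p = 0.0715). slc4a1a, the band 3 anion exchanger of the red cell membrane, had 6.12 to 13.5 and then 1.59 to 5.90 CPM (-1.47 ± 0.29, adjusted p = 0.0888). cahz, a carbonic anhydrase of zebrafish red cells, had 8.08 to 14.7 and then 2.06 to 6.95 CPM (-1.39 ± 0.28, adjusted p = 0.0911). The older libraries of all 3 genes lay below the younger ones. DESeq2 called all 3, with adjusted p-values of 2.71e-06, 0.000283 and 0.00049, limma voom called none of them (0.0976, 0.154 and 0.0925), and the 4-group mean called alas2 and slc4a1a. The erythroid transcription factor genes gata1a (-0.42 ± 0.33) and klf1 (-0.40 ± 0.25) had overlapping libraries and adjusted p-values of 0.55 and 0.467. tfr1a, the transferrin receptor for iron uptake, was the 1 member with a positive value (0.36 ± 0.19, adjusted p = 0.376).

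The Rh-associated glycoprotein gene rhag was the member in which the genotypes were furthest apart. Its log2 fold change was 0.70 in wild type and -3.00 in the mutant, with an unadjusted p for the difference of 0.00145. Its highest older library was wild-type replicate 3, at 4.43 CPM, where the other 5 were at 0.567 to 1.25 CPM.

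**Figure D2:**
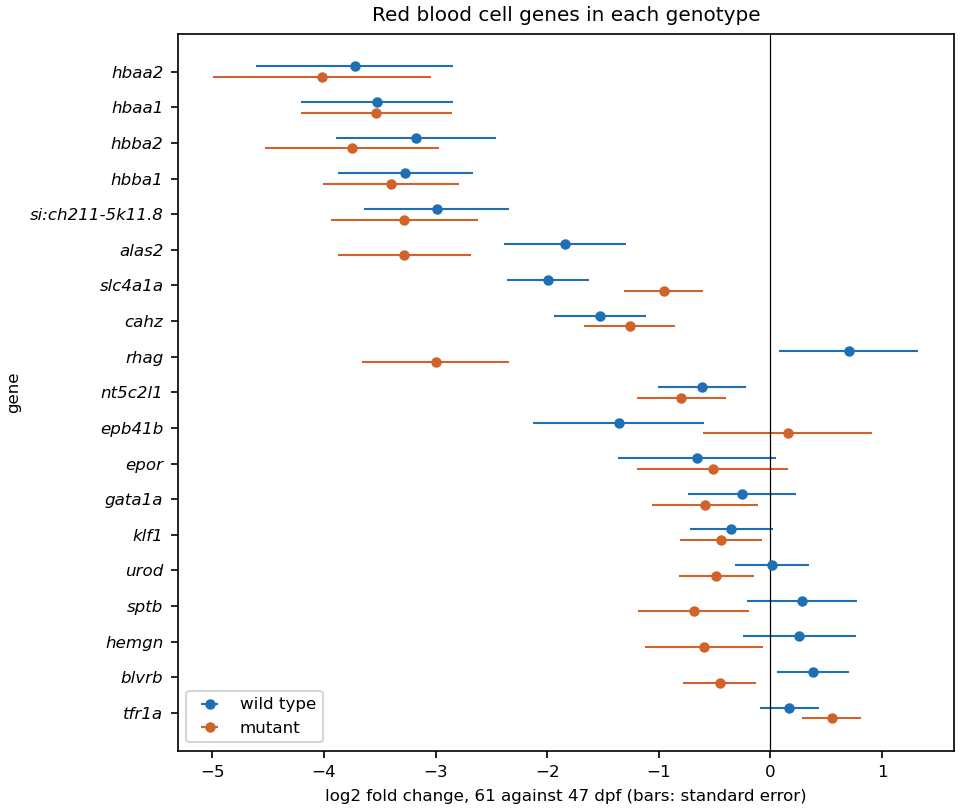
Log2 fold change of 61 against 47 dpf for the tested red blood cell genes, in wild type and in the mutant, each with its approximate standard error. The 5 adult globin genes lie near -3 to -4 in both genotypes, while rhag and some other genes lie on opposite sides of 0.

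Of the genes that rose, slc1a4 had the smallest p of the whole comparison. It encodes a transporter of small neutral amino acids such as serine and alanine. Its level was 5.07, 8.26 and 9.88 CPM at 47 dpf and 18.2, 22 and 28.9 CPM at 61 dpf (lowest, median, highest). It rose by 1.53 ± 0.18 on the log2 scale (edgeR adjusted p = 0.0124), with 1.49 in wild type and 1.57 in the mutant.

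tshz3a encodes a zinc finger transcription factor of the teashirt family. It had 10.3, 13.4 and 16.5 CPM at 47 dpf and 21.8, 28.2 and 35.0 CPM at 61 dpf (lowest, median, highest). The increase was 1.06 ± 0.13 on the log2 scale (edgeR adjusted p = 0.0124), 1.11 in wild type and 1.0 in the mutant. The 3 older wild-type libraries, at 29.8 to 35.0 CPM, were all above the 3 mutant ones, at 21.8 to 26.7 CPM.

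pik3cd encodes a catalytic subunit of phosphoinositide 3-kinase that in mammals is best known from white blood cells. Its level was 2.59, 3.46 and 5.03 CPM at 47 dpf and 7.57, 12 and 22.6 CPM at 61 dpf (lowest, median, highest). It had the largest of the 5 increases, 1.84 ± 0.24 (edgeR adjusted p = 0.0169), with 2.29 in wild type and 1.38 in the mutant. The difference between genotypes (mutant minus wild type) was -0.92 ± 0.41 (edgeR unadjusted p = 0.0449, adjusted p = 0.579). For the other 8 called genes the unadjusted p of that difference was above 0.05.

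chpfb, a gene for the chondroitin polymerizing factor that helps build chondroitin sulfate chains, had 2.44, 3.80 and 4.65 CPM at 47 dpf and 6.62, 10.7 and 16.3 CPM at 61 dpf (lowest, median, highest). It rose by 1.56 ± 0.24 (edgeR adjusted p = 0.0419). iqsec2a, a gene for an exchange factor of Arf GTPases known in mammals from synapses, had 7.05, 9.55 and 12.2 CPM and then 16, 20.1 and 24.2 CPM, a rise of 1.05 ± 0.16 (adjusted p = 0.0491). For both genes the younger and older libraries were separate in each genotype. The 5 genes that rose lie on 5 different chromosomes.

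Each genotype was then fitted on its own contrast within a model of all 4 groups. Each of the 9 called genes moved the same way in wild type and mutant, with an unadjusted p under 0.05 in both, and 8 of the 9 were also called in wild type alone. The 9 genes were picked by the common fit on these same libraries, and that fit favours genes that change alike in both genotypes. Their shared direction, their p-values in each genotype and for the difference, and their separate ages are therefore no independent evidence of a common effect. In wild type 327 genes were called (1.53%), 158 higher and 169 lower, and 4625 reached an unadjusted p under 0.05. In the mutant no gene was called by edgeR, 820 reached an unadjusted p under 0.05 (3.83%), DESeq2 called 22 and limma with sample weights 0. For the difference between the 2 age changes edgeR called no gene, with 1812 at an unadjusted p under 0.05 (8.47%), 108 calls by DESeq2 and 1 by limma. The counts of 327 and 0 therefore do not show by themselves that the genotypes differ.

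The wild-type count moved widely with single libraries. It was 842 without wild-type replicate 1 of 61 dpf and 51 without replicate 3 of that group. It was 34, 16 and 93 without wild-type replicates 1, 2 and 3 of 47 dpf, 177 without mutant replicate 3 of 47 dpf, and 175, 161 and 145 without mutant replicates 1, 2 and 3 of 61 dpf. In the mutant, 7 genes were called without mutant replicate 3 of 47 dpf, and 1 without mutant replicate 2 of 47 dpf or wild-type replicate 1 of 61 dpf. For the difference of the age changes, 3 genes were called without wild-type replicate 1 of 47 dpf, 2 without mutant replicate 2 of 61 dpf, and 1 without mutant replicate 2 of 47 dpf, wild-type replicate 1 or wild-type replicate 3 of 61 dpf.

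A stricter question is which genes changed in both genotypes at once, taking for each gene the larger of its p-values in wild type and mutant. No gene was called by edgeR on this measure, and none in any fit with a library left out. DESeq2 called 6 (slc1a4, pik3cd, tshz3a, hbba1, hbaa1 and si:ch211-5k11.8) and limma 0. At an unadjusted p under 0.05 in both genotypes and in the same direction there were 244 genes (1.14%), 147 higher and 97 lower, and a further 44 went in opposite directions. The 244 genes were 5.28% of the wild-type genes at that p and 29.8% of the mutant ones. Across all 21393 genes the age changes of the genotypes, which share no library, had a Pearson r of 0.235 and a Spearman rho of 0.257, and 59.9% of genes had the same sign in both. Genes are not independent replicates, so these are descriptions. The interquartile range of the changes was 0.767 on the log2 scale in wild type and 0.399 in the mutant.

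**Figure D3:**
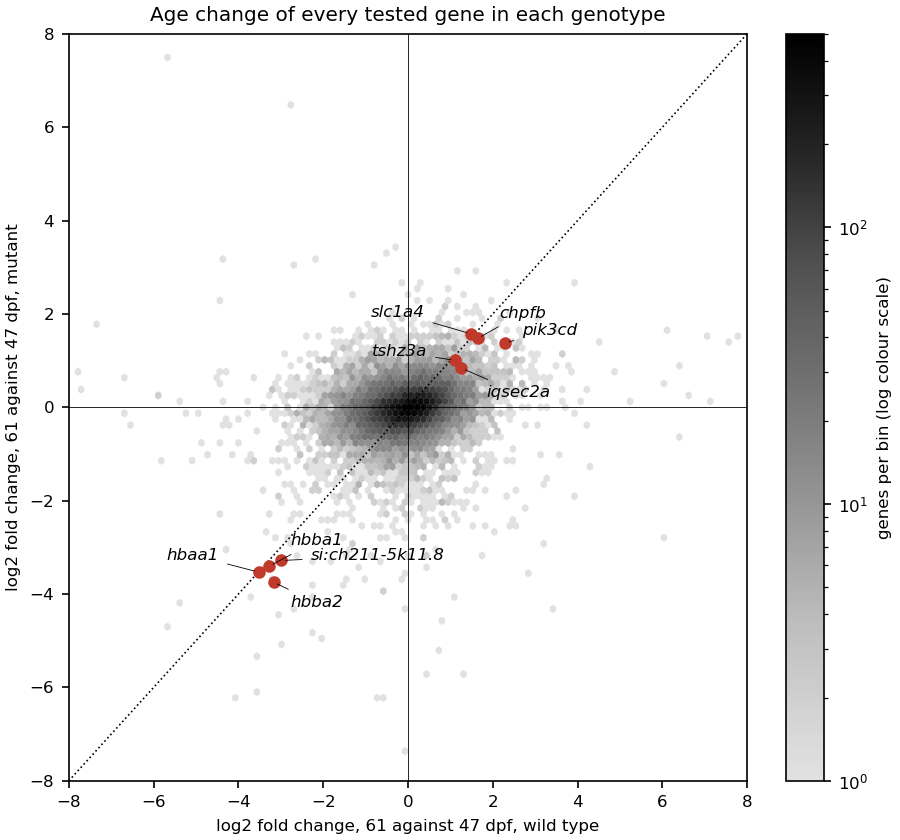
Log2 fold change of 61 against 47 dpf in wild type (x) and mutant (y) for the tested genes, as gene density on a log grey scale, with the 9 called genes in red and the line of equal change dotted; 6 genes lie beyond the axes. The cloud is wider along the wild-type axis, and the called genes lie near the dotted line, with pik3cd to its right.

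Several genes missed edgeR's threshold with no overlap between the ages, and passed in DESeq2. c3a.4, a copy of complement component C3, had 3.97, 10.9 and 20.8 CPM at 47 dpf and 0.903, 1.93 and 3.56 CPM at 61 dpf (lowest, median, highest; log2 fold change -2.49 ± 0.42, edgeR adjusted p = 0.0548). srd5a2b, a steroid 5-alpha-reductase that acts on androgens, had 0.568 to 4.95 CPM and then 0.043 to 0.327 CPM (-3.72 ± 0.61, adjusted p = 0.0548). zp3.2, an egg coat gene, had 2931 to 5516 CPM and then 501 to 2339 CPM (-1.40 ± 0.29, adjusted p = 0.0974). In DESeq2 their adjusted p-values were 5.88e-07, 5e-07 and 0.000605, and in limma voom 0.108, 0.181 and 0.0952. The younger level of srd5a2b was itself uneven, with mutant replicates 1 and 3 at 0.685 and 0.568 CPM and the other 4 libraries at 2.67 to 4.95 CPM. Several of its older values are near or under the limit of 3 counts.

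Other genes with lower values and separate libraries were scrn2 (a secernin gene, -0.67 ± 0.15), txnrd2.2 (a thioredoxin reductase gene, -0.68 ± 0.15) and the transcription factor gene sox8b (-1.44 ± 0.34), with edgeR adjusted p-values of 0.121, 0.127 and 0.138. pimr201, a Pim-related kinase gene, and or106-6, an odorant receptor gene, belong to large families whose copies can share reads, and had log2 fold changes of -1.46 ± 0.32 and -0.99 ± 0.23 (adjusted p = 0.118 and 0.138). DESeq2 called these 5 genes and limma voom none of them. Wild-type and mutant values were -2.36 and -0.58 for pimr201, -1.55 and -0.45 for or106-6, and -1.02 and -0.32 for scrn2. edgeR's unadjusted p for the difference was 0.000367, 0.00838 and 0.0113, and none passed its adjustment. For txnrd2.2 the values were -0.84 and -0.52, and for sox8b -0.86 and -2.02 (edgeR unadjusted p for the difference 0.316 and 0.0752).

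On the higher side, all of the following were called by DESeq2 and, except for rai1 (adjusted p = 0.0463), none by limma voom. rai1, a gene for a chromatin-associated regulator, had 1.93, 3.75 and 4.93 CPM at 47 dpf and 6.85, 9.41 and 16 CPM at 61 dpf (1.45 ± 0.23, edgeR adjusted p = 0.0548). The sodium pump subunit gene atp1a3a had 2.98, 4.67 and 6.23 CPM and then 6.61, 16 and 39.9 CPM (1.74 ± 0.31, adjusted p = 0.0759). Further genes were unm_hu7912 (1.99 ± 0.33), the receptor gene gpr132b (1.75 ± 0.30), the junctophilin gene jph1b (0.97 ± 0.18), the engulfment adaptor gene gulp1a (1.26 ± 0.24) and the ceramide synthase gene cers2b (1.06 ± 0.20), with adjusted p-values of 0.0548 to 0.0829. All 7 had larger values in wild type than in the mutant, as 2.31 against 1.15 for atp1a3a (unadjusted p for the difference 0.0484).

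cmah, a gene for an enzyme of sialic acid synthesis, was one where the genotypes had unlike values under the common model. It had 1.84 to 2.93 CPM in the 6 libraries of 47 dpf, 15.4 to 21.4 CPM in wild type and 3.80 to 4.48 CPM in the mutant at 61 dpf. Both genotypes were thus above all younger libraries, by 2.94 and 0.71 on the log2 scale. The unadjusted p of the difference was 2.16e-05, and it did not pass edgeR's adjustment over all genes.

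The 49 gene lists together hold 1640 tested genes, and 32 of these (1.95%) had an unadjusted p under 0.05 in both genotypes and the same direction, with 9 higher and 23 lower. The share among all genes was 1.14%. Of the 23, 7 were erythroid, 4 were muscle genes and 3 collagens. At 47 dpf the 4 muscle genes were all highest in mutant replicate 2 and next in wild-type replicate 3. For pvalb1 these had 30.3 and 2.25 CPM, and the other libraries of that age 0.114 to 0.655 CPM. None of the lists other than the erythroid one held a gene called by edgeR, so the following are values. They are read against 15.2% of all genes at an unadjusted p under 0.05 in either direction, 8.24% higher and 6.96% lower.

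**Figure D4:**
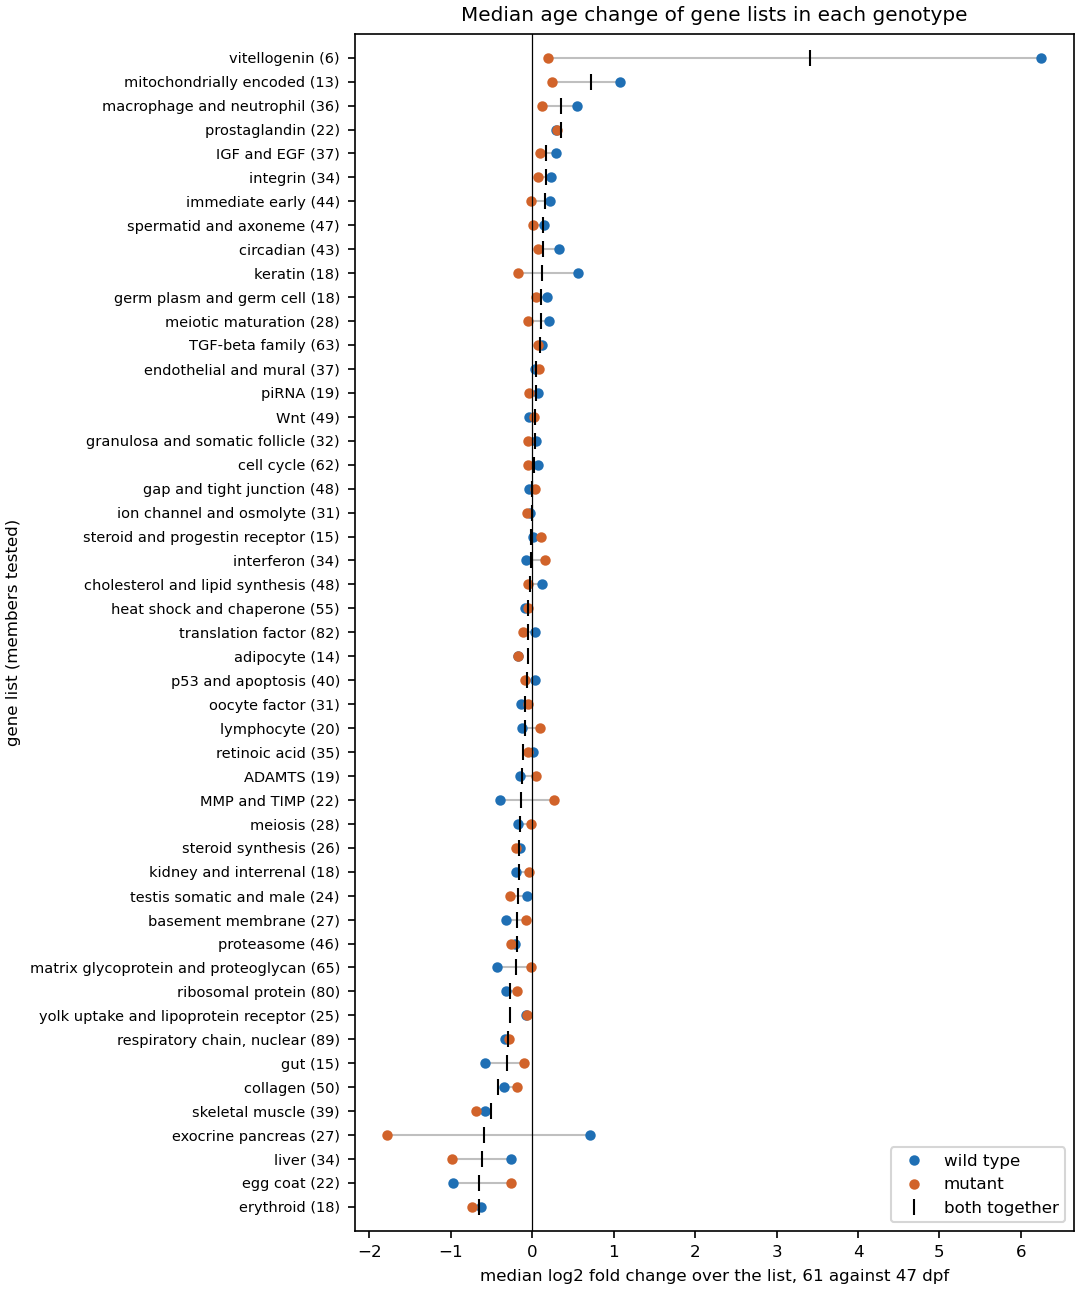
Median log2 fold change of 61 against 47 dpf over the tested members of each of the 49 lists, in wild type, in the mutant and in both together (black ticks), with the number of members tested. Erythroid genes have a similar median in both genotypes, while vitellogenin, exocrine pancreas and mitochondrially encoded genes are far apart.

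Among oocyte products, the egg coat genes lay lower at 61 dpf: 21 of 22 had a negative log2 fold change, 6 of them at an unadjusted p under 0.05, with a list median of -0.65. Their summed level was 26072 to 35400 CPM at 47 dpf and 5792 to 27616 CPM at 61 dpf, and the ages overlapped through wild-type replicate 1 of 61 dpf. The low end was wild-type replicates 2 and 3 of 61 dpf, at 5792 and 7361 CPM. The mutant libraries of that age, at 20764.5 to 25422 CPM, were closer to the younger ones. The list median was -0.98 in wild type and -0.26 in the mutant. zp2.1 had 2978 to 4520 CPM and then 295 to 2934 CPM (-1.0 ± 0.43, edgeR adjusted p = 0.297). It too was lowest in wild-type replicates 2 and 3 of 61 dpf, at 520 and 295 CPM. These genes come in tandem copies whose reads may be divided between them.

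Yolk precursors differed in another way. The 6 tested vitellogenin genes, which the liver is known to make and the oocyte to take up, were all positive in the common fit. Of these, 3 had an unadjusted p under 0.05 there, and 4 were positive in each genotype. Their summed level was 1.49 to 8.86 CPM at 47 dpf. At 61 dpf it was 107, 14.1 and 127 CPM in wild-type replicates 1 to 3, and 12.3, 2.69 and 2.0 CPM in the mutant ones. The list median was 6.25 in wild type and 0.19 in the mutant, and mutant libraries of the 2 ages overlapped. In the wild-type libraries of 47 dpf, vtg2, vtg4 and vtg7 had 0 to 0.229 CPM. These levels are near or under the limit of 3 counts, so the size of the wild-type median is uncertain. For vtg1 the unadjusted p of the difference between genotypes was 0.00284, and the adjusted p of its common age effect was 0.358. Summed liver markers were at 62.9, 35.9 and 81.9 CPM in wild-type replicates 1 to 3 of 61 dpf and at 120, 58.0 and 51.8 CPM in the mutant ones, the same order of libraries as for vitellogenin within each genotype. At 47 dpf mutant replicate 1 was highest in both sums, at 335 CPM of liver markers and 8.86 CPM of vitellogenin. The order was otherwise unlike at that age. Wild-type replicates 1 to 3 had 75.9, 44.0 and 48.0 CPM of liver markers and 2.48, 3.05 and 1.49 CPM of vitellogenin. Mutant replicates 2 and 3 had 61.9 and 82.3 CPM of liver markers and 3.38 and 2.88 CPM of vitellogenin. The part of liver RNA in the vitellogenin levels was not tested.

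The list of other oocyte factors had a median of -0.09, with 3 of 31 members lower and none higher at an unadjusted p under 0.05. The homeobox gene lhx8a had 69.0 to 89.8 CPM and then 51.8 to 67.2 CPM (-0.40 ± 0.12, edgeR adjusted p = 0.188), without overlap. figla, a transcription factor gene of early oocytes, had -0.60 ± 0.20 (adjusted p = 0.211). Of the piRNA genes, which guard the germ line against transposons, 3 of 19 were lower at that p, among them tdrd12 (-0.70 ± 0.18) and tdrd9 (-0.51 ± 0.15), with adjusted p-values of 0.158 and 0.188. The germ plasm, meiosis and meiotic maturation lists had 3 of 18, 3 of 28 and 1 of 28 members at that p in either direction, close to or under the share of all genes.

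Mitochondrial transcripts showed opposite values by origin. Of the 13 mitochondrially encoded genes all had a positive value and 12 an unadjusted p under 0.05 (92.3%). The median was 0.72, with 1.08 in wild type and 0.24 in the mutant. They made up 0.588% to 0.849% of counts at 47 dpf and 0.749% to 2.21% at 61 dpf, and the highest share was in wild-type replicate 3. mt-nd2, a subunit gene of complex I, had a median of 360 CPM at 47 dpf and 721 CPM at 61 dpf, where it ranged from 432 to 2311 CPM (1.2 ± 0.34, edgeR adjusted p = 0.18). These 13 genes are read from the same genome, so their values are not independent.

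Nuclear genes of the respiratory chain had mostly negative values, with 65 of 89 negative in both genotypes, against 6353 of all 21393 genes. In the common fit 73 of 89 had a negative value and 21 of 89 were lower at an unadjusted p under 0.05, with none higher. Their median was -0.30 over both genotypes, -0.34 in wild type and -0.29 in the mutant. ndufb9, a subunit gene of complex I, had 33.1 to 85.3 CPM and then 10.8 to 42.8 CPM (-0.84 ± 0.25, edgeR adjusted p = 0.188). Cytoplasmic ribosomal protein genes had a median of -0.27, with 17 of 80 lower and 1 higher at that p, and rpl39 (-0.48 ± 0.15, adjusted p = 0.202) did not overlap between ages. Proteasome genes had a median of -0.19 with 9 of 46 lower and none higher, among them psmb2 (-0.52 ± 0.14, adjusted p = 0.164). Translation factors had 7 of 82 lower and 3 higher, and a median of -0.05.

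**Figure D5:**
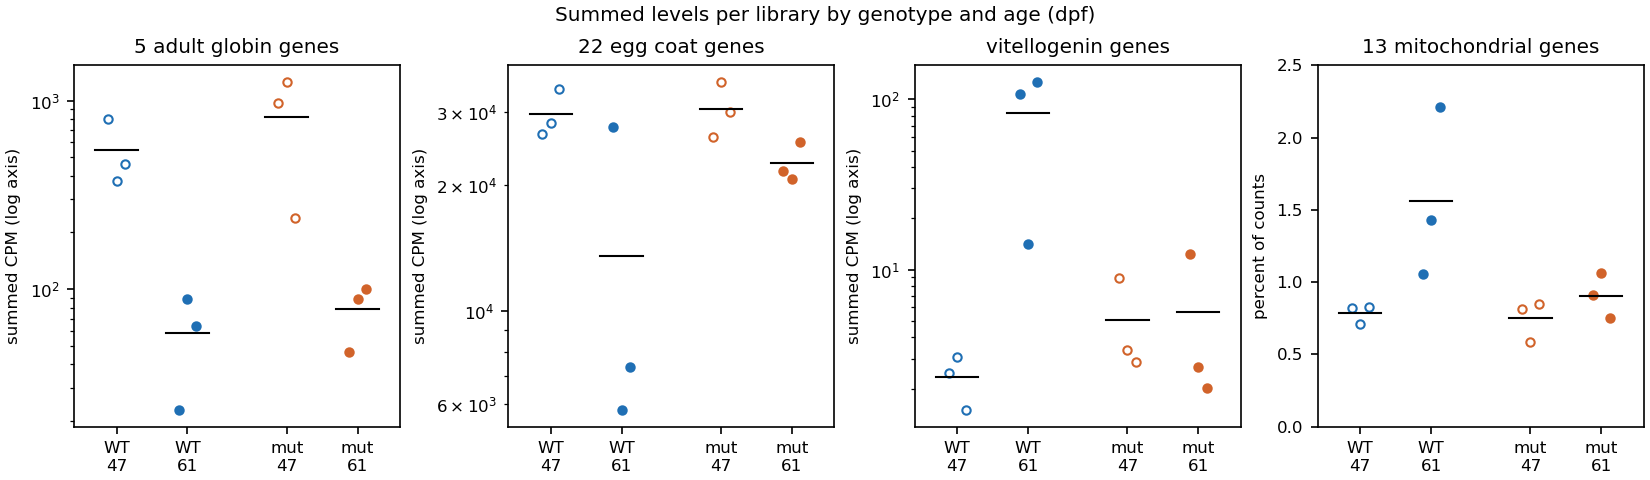
Summed levels per library of the adult globin, egg coat and vitellogenin genes, in CPM on log axes, and the percent of counts from the mitochondrially encoded genes, by genotype and age in dpf (bars are group means of 3 libraries). The globin sum is lower in all 6 libraries of 61 dpf, while the other 3 panels overlap between the ages.

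Genes of the extracellular matrix, in which Adamts proteases act, mostly had lower values in the common fit. Of 50 collagen genes, 15 were lower and 1 higher at an unadjusted p under 0.05, and the median was -0.42. Basement membrane genes had 9 of 27 lower and 1 higher, and matrix glycoproteins and proteoglycans 16 of 65 lower and 1 higher, with medians of -0.18 and -0.20. The collagen median was -0.35 in wild type and -0.19 in the mutant, and the basement membrane median -0.32 and -0.07. For matrix glycoproteins and proteoglycans it was -0.44 and -0.01. Negative in both genotypes were 32 of 50, 12 of 27 and 25 of 65 members of these lists, against 6353 of all 21393 genes. In each genotype at an unadjusted p under 0.05 were col28a2a (-1.91 in wild type and -0.74 in the mutant), col6a3 (-0.67 and -0.46), col1a1a (-0.63 and -0.70) and the periostin gene postnb (-0.98 and -0.94). The last pair lies outside the naming rule and was chosen after the values were seen, as was lama5 below.

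Laminin chains, which form the scaffold of basement membranes, had values in both directions. lama1 had 10.4, 14.9 and 19.8 CPM at 47 dpf and 21.2, 31.9 and 40.2 CPM at 61 dpf (lowest, median, highest; 0.97 ± 0.20, edgeR adjusted p = 0.0919), without overlap. lamb2l had 10.2 to 17.3 and then 4.17 to 11 CPM (-0.84 ± 0.18, adjusted p = 0.108), and lama5 had 24.3 to 54.0 and then 17.9 to 37.7 CPM (-0.50 ± 0.14, adjusted p = 0.171). Wild-type and mutant values were 1.25 and 0.68 for lama1, -1.22 and -0.47 for lamb2l, and -0.55 and -0.46 for lama5. For lamb2l edgeR's unadjusted p for the difference was 0.0218. All 3 were picked by their p-values or after their values were seen, so their shared direction is no independent evidence.

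Integrins, the receptors that bind cells to matrix, had 7 of 34 members higher and none lower at an unadjusted p under 0.05. itga5, the alpha chain of the fibronectin receptor, had 19.1, 25.8 and 39.2 CPM at 47 dpf and 41.1, 44.3 and 66.5 CPM at 61 dpf (lowest, median, highest), with no overlap. Its log2 fold change was 0.86 ± 0.19 (edgeR adjusted p = 0.121), 0.81 in wild type and 0.92 in the mutant. itga6a, a laminin receptor chain, had 0.98 ± 0.26 (adjusted p = 0.159). Matrix metalloproteases and their inhibitors had 4 of 22 higher and 1 lower, and the ADAMTS family 1 of 19 in each direction.

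Of growth factor genes, the TGF-beta family had 12 of 63 higher and 2 lower at an unadjusted p under 0.05. The ligand gene gdf10a had 0.483 to 1.1 CPM and then 1.06 to 6.78 CPM (2.0 ± 0.43, edgeR adjusted p = 0.11). gsdf, a factor of somatic cells around germ cells, was the lowest of the family: it had 47.4, 65.8 and 97.0 CPM at 47 dpf and 9.93, 27.5 and 53.6 CPM at 61 dpf (lowest, median, highest; -1.41 ± 0.30, adjusted p = 0.11). Its older libraries were at 9.93 to 18.9 CPM in wild type and 36.1 to 53.6 CPM in the mutant (unadjusted p of the difference 0.0127).

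Of the IGF and EGF families, 4 of 37 were higher at an unadjusted p under 0.05 and none lower. That is 10.8% higher, near the 8.24% of all genes. nrg1, the neuregulin ligand of ErbB receptors, had 31.8, 68.0 and 92.5 CPM at 47 dpf and 104, 123 and 167 CPM at 61 dpf (lowest, median, highest), with no overlap (1.0 ± 0.25, edgeR adjusted p = 0.144). hbegfb, another ligand of that receptor family, had 1.17 ± 0.28 (adjusted p = 0.142). Both had values of 0.92 to 1.38 in each genotype.

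Genes of the somatic follicle cells and of steroid synthesis had values in both directions. Granulosa and somatic follicle genes had 3 of 32 members higher and 3 lower at an unadjusted p under 0.05. nr5a2, a nuclear receptor gene, had 1.3 to 3.97 and then 4.29 to 7.28 CPM (1.05 ± 0.28, edgeR adjusted p = 0.158), without overlap. In the steroid synthesis list 5 of 26 were lower and 3 higher, together 30.8%, against 15.2% of all genes. The lower ones made up 19.2%, against 6.96% of all genes. Of these, star and srd5a2b did not overlap between the ages. star, which brings cholesterol into mitochondria, had 1.14 to 1.64 and then 0.541 to 1.0 CPM (-0.84 ± 0.23, adjusted p = 0.166), and cyp11a1, the first enzyme of the pathway, 107 to 270 and then 86.3 to 560 CPM (0.78 ± 0.33, adjusted p = 0.299). The aromatase gene cyp19a1a, at 0.343 to 4.04 and 0.780 to 2.87 CPM, overlapped.

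The receptors for pituitary gonadotropins had age values in wild type that the mutant did not share. fshr had log2 fold changes of 1.17 and -0.16, and lhcgr of 1.64 and -0.09, in wild type and mutant (unadjusted p of the difference 0.00189 and 0.0111). Neither difference passed edgeR's adjustment, and the common age effects had adjusted p-values of 0.352 and 0.351.

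Markers of other cells that an ovary dissection can hold were examined in the same libraries. Skeletal muscle genes had 15 of 39 lower and 2 higher at an unadjusted p under 0.05, and a summed level of 1075 to 2175 CPM at 47 dpf and 553 to 1241 CPM at 61 dpf. The highest library was mutant replicate 2 of 47 dpf. The parvalbumin gene pvalb2 had 0.0801 to 15.6 CPM and then 0 to 0.111 CPM, with its value of -5.30 ± 1.24 becoming -3.73 without that library (edgeR adjusted p = 0.138 and 0.238). Liver markers had 3 of 34 lower and 1 higher, with 44.0 to 335 CPM and then 35.9 to 120 CPM. Their median of -0.61 became -0.01 without mutant replicate 1 of 47 dpf. Exocrine pancreas markers ranged from 39.3 to 3665 CPM at 47 dpf and from 45.1 to 1081 CPM at 61 dpf, with none of 27 at an unadjusted p under 0.05. Their median was 0.71 in wild type and -1.78 in the mutant.

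Of the blood and vessel markers other than red cell genes, macrophage and neutrophil genes had 8 of 36 higher and 2 lower at an unadjusted p under 0.05. Their median was 0.36, with 0.55 in wild type and 0.11 in the mutant. Their summed level overlapped between the ages, with medians of 823 CPM at 47 dpf and 791 CPM at 61 dpf. The member of smallest p, lyz, was lower (-0.99 ± 0.25, edgeR adjusted p = 0.144). Lymphocyte genes had none of 20 in either direction, and endothelial and mural genes 4 of 37 higher and 2 lower. Of these, stab2, a scavenger receptor gene of vessel lining, had -0.48 in wild type and -0.47 in the mutant (edgeR adjusted p = 0.18 for the common effect). The summed level of the erythroid list, which itself includes 4 of the globin genes, was 242 to 936 CPM at 47 dpf and 118 to 171 CPM at 61 dpf. In its highest library of 47 dpf, mutant replicate 2, hbba1 and hbaa1 had 436 and 355 CPM of the 936. In its highest library of 61 dpf, wild-type replicate 2, they had 33.9 and 17.8 CPM of the 171. The fall of this sum is thus mostly that of the globin genes. The part of these other cells in the age effects was not tested.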

How the data were processed

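Polyadenylated RNA of 12 ovary samples was sequenced. Genotype, age and replicate number come from the sample labels, whose ages are used (the series' design text gives others). What the authors deposited is a single table of estimated counts with a line for each gene symbol. Per the submitters' processing notes, kallisto and GRCz11 were used; their versions and the annotation release are not stated there. Of 26172 lines, 1 without a name and 17 with a spreadsheet date for a name were left out (at most 0.000113% and 0.125% of a library), and 45.4% of values were not whole (tolerance 1e-06). The 47 genes with the same values as another gene include none that was called.

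The estimated counts were rounded, filtered with filterByExpr (minimum count 10) on the 4 groups, scaled by TMM and fitted with edgeR 4.0.16 (R 4.3.3) quasi-likelihood tests, with genotype and age as terms. A 4-group fit gave the age change of each genotype, their difference, and the change in both. Adjusted p-values are Benjamini-Hochberg values from edgeR over all 21393 genes, called under 0.05. CPM values are scaled by TMM. Standard errors are the size of the log2 fold change divided by the square root of edgeR's F value, and are approximate. No molecular identifiers are mentioned, so the limit of 3 counts for a count of 0 covers counting error only. The script was tested on simulated data.

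The comparison, the 49 gene lists and the 37 key genes were chosen with earlier results of these data known. Named genes are the key genes, the 12 rises and 12 falls of smallest p among genes with a plain symbol, a mean log2 CPM of at least 1 and no overlap between ages (all 7 called genes that qualify are among them), the 2 members of smallest p of each list, and those of smallest p in both genotypes and for the difference between genotypes. Alternatives were other scaling, filters, DESeq2 1.42.0, limma 3.58.1 voom with sample quality weights, a replicate block, a test against a fold of 1.5, other designs, and leaving out each library. Gene order and chromosomes come from RefSeq GRCz12tu, another build, so no coordinates are given.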

Additional observations from a re-analysis of the deposited data

Results flagged for a closer look

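In 250 groups of 6 libraries of 1 age (125 genes and list sums), 17 had a highest or lowest library whose gap to the nearest other was above Dixon's critical value for 6 samples (0.625, on log2 of CPM plus 0.5); chance gives about 1 in 20. At 47 dpf, mutant replicate 2 was highest for sox8b (72.0 CPM, others 24.5 to 33.5), atp5po (449, others 303 to 339), tnnt3b (30.2, others 0.481 to 2.48) and the skeletal muscle sum (2175, others 1075 to 1296). Mutant replicate 1 was highest for vtg1 (6.09 CPM, others 0.280 to 0.664) and the liver sum (335, others 44.0 to 82.3) and lowest for zp2l2 (71.1, others 96.5 to 113). Mutant replicate 3 was highest for the gut sum (58.6 CPM, others 40.9 to 43.7).

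In wild type at 47 dpf, chpfb was lowest in replicate 2 (2.44 CPM, others 3.70 to 4.65), jph1b in replicate 3 (2.75, others 3.80 to 4.46) and buc in replicate 1 (840, others 988 to 1073). At 61 dpf, hbaa2 was highest in wild-type replicate 2 (0.425 CPM, others 0 to 0.129), mpx in wild-type replicate 1 (2.60, others 0.378 to 0.780), and rhag (4.43, others 0.567 to 1.25) and amh (12.6, others 5.82 to 7.39) in wild-type replicate 3. nfil3-5 was lowest in mutant replicate 1 (3.27 CPM, others 6.17 to 7.27) and sc5d in mutant replicate 3 (7.41, others 9.85 to 11.6).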

How the results depend on the processing

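The count of 9 genes became 20 with upper-quartile scaling (9 higher, 11 lower, against 5 and 4), 600 with DESeq2 (395 higher, 205 lower), 92 with the mean of the 2 age changes in the 4-group fit (53 higher, 39 lower), 0 in a test against a fold of 1.5 (703 at an unadjusted p under 0.05) and 4 with the globin copies summed. It was 9 with median-of-ratios scaling, without a filter, with limma voom and without the genotype term, and 8 with a stricter filter; limma voom kept 7 of the 9 genes (not chpfb or iqsec2a), the fit without genotype 8 (not iqsec2a) and the stricter filter 8 (not hbba2). In wild type the 327 genes became 1669 with DESeq2, 45 with limma voom and 115 with the replicate block, and upper-quartile scaling gave 92 higher and 219 lower (158 and 169 as reported). DESeq2 called 22 genes in the mutant, 108 for the difference and 6 in both genotypes, and limma voom 1 for the difference. The cause of these differences was not tested. Leaving out 1 library each gave 0 to 18 genes for the common effect, 16 to 842 in wild type, 0 to 7 in the mutant, 0 to 3 for the difference and 0 to 0 in both genotypes. Over 107 named genes, 2171 values kept direction and side of the threshold, 91 came to pass it, 70 no longer passed and 5 changed sign, which leaves gdf9 between -0.085 and 0.0073 and buc between -0.12 and 0.039 when single libraries are left out: gdf9 to 0.0058 and 0.0073 without wild-type replicate 2 of 47 or of 61 dpf, and buc to 0.011, 0.039 and 0.0028 without mutant replicate 2 of 47 dpf, wild-type replicate 2 or mutant replicate 3 of 61 dpf. With replicate number as a block, 7 genes were called, of which 4 were among the 9. Samples of the same number deviated together weakly at most (18 pairs, r of -0.198 to 0.254, 2 over 0.1). Their median r was 0.0235, against -0.0155 for pairs of unlike number, which ranged from -0.228 to 0.238. However, 7 of 12 libraries correlated best with their own number, so these values do not settle whether the numbers pair the samples. Genes near the limit of 3 counts, such as hbba2, are the least certain.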

Other observations

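The counts of this section are read against 8.24% of all genes higher and 6.96% lower at an unadjusted p under 0.05, together 15.2%. Genes of the cell cycle had 6 of 62 members higher and 5 lower at that p (17.7%), near the share of all genes. The proliferation marker gene mki67 had 935 to 1427 CPM at 47 dpf and 1084 to 1764 CPM at 61 dpf (0.29 ± 0.13, edgeR adjusted p = 0.322), and pcna, the sliding clamp of DNA replication, 344 to 568 and then 211 to 377 CPM (-0.49 ± 0.16, adjusted p = 0.212). In the p53 and apoptosis list 7 of 40 were lower and 3 higher, and cdkn1a, an inhibitor of the cell cycle that p53 induces, had 12.1 to 15.4 and then 3.14 to 12.2 CPM (-0.95 ± 0.23, adjusted p = 0.144). Circadian genes had 6 of 43 higher and 1 lower, among them the repressor gene nfil3-5 (1.46 ± 0.32, adjusted p = 0.119), whose value was 2.32 in wild type and 0.64 in the mutant. In the interferon list 4 of 34 were lower and 3 higher, and ifit8 had 1.70 to 2.37 and then 0.866 to 1.43 CPM without overlap (-0.88 ± 0.20, adjusted p = 0.12).

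Among genes of somatic male development, 7 of 24 were lower and 2 higher at an unadjusted p under 0.05, and dmrt1, a transcription factor gene of testis development, had 3.66 to 21.4 and then 2.15 to 12.8 CPM (-1.39 ± 0.54, edgeR adjusted p = 0.266). Wnt genes had 2 of 49 higher and 5 lower, prostaglandin genes 4 of 22 higher and none lower, and retinoic acid genes 4 of 35 higher and 5 lower. In cholesterol and lipid synthesis 6 of 48 were higher and 6 lower, and sc5d, an enzyme of cholesterol synthesis, had 0.77 in wild type and 0.82 in the mutant (adjusted p = 0.172 for the common effect). Yolk uptake and lipoprotein receptors had 3 of 25 in each direction, steroid and progestin receptors 1 of 15 higher, and heat shock and chaperone genes 3 of 55 higher and 6 lower. Immediate early genes had 4 of 44 higher and none lower, and spermatid and axoneme genes 5 of 47 higher and 1 lower. Ion channel genes had 3 of 31 higher and 1 lower, junction genes 3 of 48 higher and 2 lower, and keratins 1 of 18 higher. From immediate early genes to keratins, 5.56% to 12.9% of a list reached that p, under the 15.2% of all genes. Gut markers had 1 of 15 higher and 3 lower, kidney markers 1 of 18 higher and 4 lower, and adipocyte markers 3 of 14 in each direction.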
